A study of Mus musculus with 8 samples.

Results

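The 10 genes described here, Cdh5, Pecam1, Esam, Emcn, Tie1, Tek, Kdr, Flt1, Eng and Egfl7, are widely used as markers of endothelial cells, the cells that line blood vessels. They were chosen by gene symbol, with earlier results of these data known, and each of the 10 was found as 1 row among the 24015 gene symbols measured. RNA sequencing followed them in cardiac fibroblasts of C57BL/6J mice of wild type genotype, aged 8 weeks, held in osteogenic differentiation medium. All 8 libraries share that strain, genotype, age and cell type, and they differ by time, with 2 libraries each taken before the medium (day 0) and on day 7, day 14 and day 21 in it. No library came from cells kept for the same time without the medium, so medium and time in culture cannot be told apart. Whether paired libraries stem from different cultures or animals is not in the labels, so p-values cover just the spread seen between them. Levels are normalized counts, which are reads per gene divided by 1 scaling factor per library, and errors of levels are standard deviations (SD, n = 2).

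Endothelial cells hold on to each other through adherens junctions built on VE-cadherin, the product of Cdh5, and read growth signals through receptor tyrosine kinases. VEGF ligands act on the receptors encoded by Kdr and Flt1, angiopoietins on the receptor encoded by Tek, and Tie1 encodes a partner of that receptor. Several of these genes are not limited to endothelium: Eng, a co-receptor for BMP and TGF-beta ligands, is also abundant on mesenchymal stromal cells and fibroblasts, Flt1 is also made by monocytes and macrophages, and Pecam1 by platelets and leukocytes.

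Reads assigned to genes numbered between 13399313 and 21883498 per library, with 15409 to 16200 genes detected, and 1 read was worth 0.796 to 1.31 normalized counts. The 10 endothelial genes together held 9612 to 17889 normalized counts per library, nearly all of it from Eng, against 322572 to 719123 for 10 fibroblast markers, all of them read. Differences were tested with limma on log2(normalized count + 1) across 13527 genes, with Benjamini-Hochberg adjustment over all of them, and a gene is called changed at an adjusted p below 0.05. Libraries without overlap between 2 times were common. Both day 7 libraries lay above both of day 0 for 40.8% of all tested genes and below them for 42.4%. For day 21 against day 0 the shares were 40.5% and 40.7%. Lack of overlap thus does not by itself set a gene apart. Of the 10 genes, 9 had at least 10 normalized counts in at least 2 libraries and were tested, and Kdr was not. Tie1 and Esam reached that level in 1 of 4 libraries at days 14 and 21, against 4 of 4 at days 0 and 7, so their place in the test rests on the times when they were high.

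Most of the endothelial genes declined over the 3 weeks, but they did not move as 1 block. By day 21, Cdh5 stood at 3.05% of its day 0 level, Tie1 at 9.87%, Esam at 20.5%, Pecam1 at 25.3%, Egfl7 at 29.1% and Emcn at 42.5%. Flt1 went the other way, to 778% of its day 0 level, while Tek stood at 117% and Eng at 111%. At day 21 against day 0, 6 of the 9 tested genes fell and 1 rose, where 29.5% of all tested genes fell and 29.8% rose (59.4% in either direction). The median log2 change was -1.73 over the 9 and 0.00 over all tested genes. The count of falls and the median include Tie1 and Esam, which entered the test through days 0 and 7, when they were high. In bulk RNA, fewer cells of a type and less RNA per cell cannot be told apart.

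Markers of macrophages and other leukocytes moved over the same weeks. Of 16 listed genes, all tested and none without reads at day 0, 15 rose and 1 fell at day 21 against day 0. Over all tested genes, 29.8% rose and 29.5% fell. Ptprc, Fcgr1 and Tyrobp, among those that rose, reached 10 normalized counts only in libraries in the medium. They entered the test through times when they were high. The summed level of the 16 genes in normalized counts was 1299 and 1404 (day 0 libraries), 12986 and 10560.0 (day 7), 21684 and 40544 (day 14), and 21478 and 22014 (day 21). The part of these cells in the changes of the endothelial genes was not tested.

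**Figure D1:**
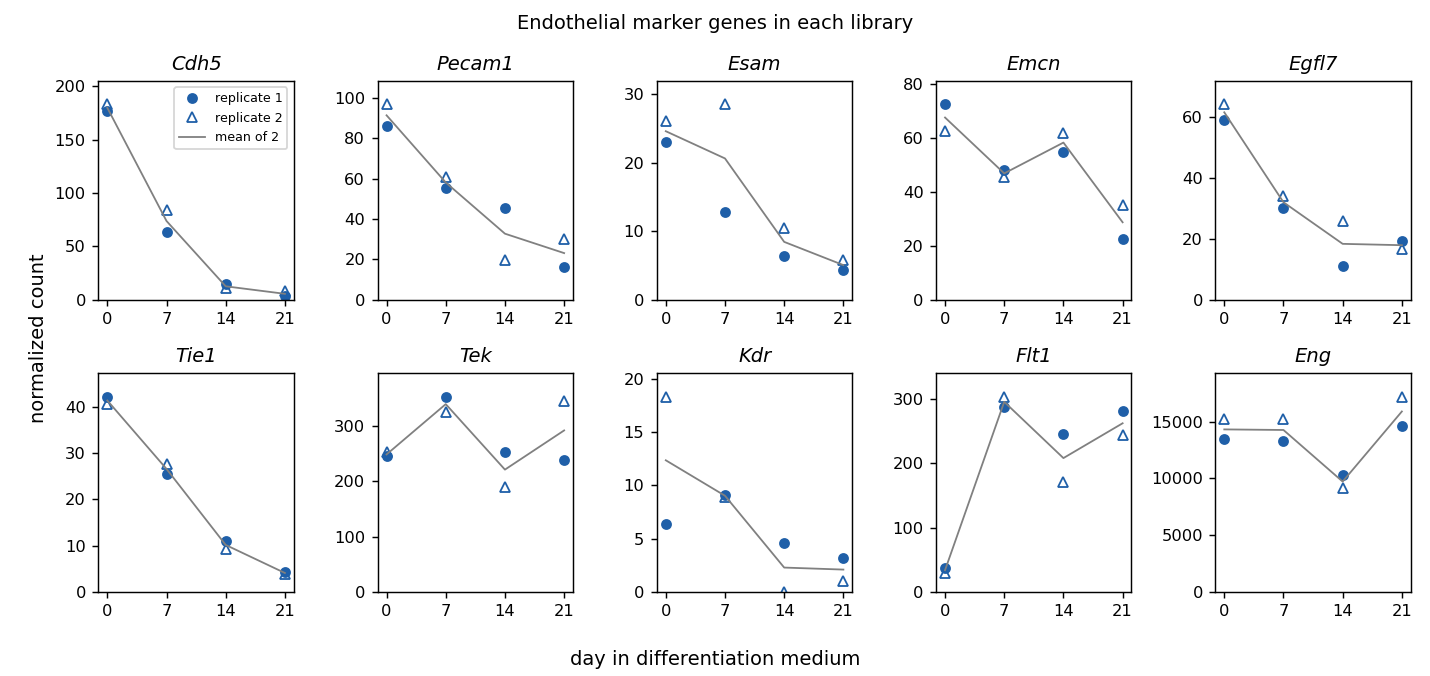
Normalized counts of the 10 endothelial marker genes at days 0, 7, 14 and 21, on linear axes that start at 0 and differ in range between genes, with 1 point per library and a line through the mean of the 2 libraries. Cdh5 lies at 3.20 and 7.78 on day 21, against 177 and 183 on day 0, Flt1 lies at 171 or above in the medium, against 30.1 and 37.4 before it, and Eng stays between 9114 and 17200.

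Promoters of genes with contrasting time courses were compared, to set 2 genes that fell (Egfl7, Emcn) beside 1 that rose (Flt1) and 1 that was called in neither direction against day 0 (Tek). Each is a window of 300 bases around the start of a RefSeq gene, on build GRCm38.p6, which is not the build of the deposited values, written 5′ to 3′ on the strand of the gene. Capitals mark the letters ACNGGAAG on either strand, a core pattern bound by ETS factors, the family to which the endothelial regulators Erg and Fli1 belong. The windows are chr2:26583615-26583914 on the plus strand for Egfl7, chr3:137340828-137341127 on the plus strand for Emcn, chr5:147725962-147726261 on the minus strand for Flt1 and chr4:94739039-94739338 on the plus strand for Tek.
Egfl7: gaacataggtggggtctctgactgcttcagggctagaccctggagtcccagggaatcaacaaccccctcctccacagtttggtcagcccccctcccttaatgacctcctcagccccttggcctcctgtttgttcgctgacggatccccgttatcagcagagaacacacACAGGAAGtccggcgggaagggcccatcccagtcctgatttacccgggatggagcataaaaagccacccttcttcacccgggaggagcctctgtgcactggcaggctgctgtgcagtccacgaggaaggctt
Emcn: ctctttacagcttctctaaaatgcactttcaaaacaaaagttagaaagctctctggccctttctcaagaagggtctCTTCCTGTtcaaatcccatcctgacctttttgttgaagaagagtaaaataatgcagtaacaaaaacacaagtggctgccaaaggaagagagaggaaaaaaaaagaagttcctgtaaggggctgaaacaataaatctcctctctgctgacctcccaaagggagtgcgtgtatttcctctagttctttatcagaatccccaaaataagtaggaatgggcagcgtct
Flt1: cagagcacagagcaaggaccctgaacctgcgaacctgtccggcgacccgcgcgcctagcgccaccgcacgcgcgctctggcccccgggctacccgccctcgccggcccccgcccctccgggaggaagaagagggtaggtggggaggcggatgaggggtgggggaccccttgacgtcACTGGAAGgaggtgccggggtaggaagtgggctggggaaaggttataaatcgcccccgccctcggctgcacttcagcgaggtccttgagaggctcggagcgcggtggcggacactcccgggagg
Tek: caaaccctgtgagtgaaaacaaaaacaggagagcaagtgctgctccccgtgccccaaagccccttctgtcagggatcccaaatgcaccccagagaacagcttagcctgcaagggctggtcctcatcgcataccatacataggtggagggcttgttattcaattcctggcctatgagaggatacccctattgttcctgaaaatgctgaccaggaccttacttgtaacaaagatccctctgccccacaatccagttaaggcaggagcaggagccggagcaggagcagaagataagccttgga
The pattern begins 82 bases before the start in Egfl7, 74 before it in Flt1 and 174 before it in Emcn, where it lies on the opposite strand. No match lies in the Tek window. RefSeq windows were matched for 7 of the 10 genes, 3 of them for Egfl7, and a match was also found in 1 further Egfl7 window and in none of Tie1, Kdr and Eng. Among all 32851 such windows 2677, or 8.15%, hold the pattern. For Egfl7, the window shown is 1 of 2 with a match, out of 3. The pattern is thus present beside some genes that fell and beside the gene that rose, and absent beside Tie1, which also fell. A match describes letters, not bound factor.

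Cdh5, the gene of VE-cadherin, had 177 and 183 normalized counts on day 0, 63.8 and 83.8 on day 7, 14.6 and 10.5 on day 14 and 3.20 and 7.78 on day 21. No library of a later time reached those of an earlier one, and 11 reads over the 2 day 21 libraries compare with 362 over the 2 of day 0. In the limma fit, Cdh5 was lower at day 7 than at day 0 by a log2 change of -1.29 ± 0.34 (SE, adjusted p = 0.00671), at day 14 by -3.76 ± 0.34 (adjusted p = 9.21e-07) and at day 21 by -4.90 ± 0.34 (adjusted p = 1.13e-07), a 29.8-fold lower value. With the first day 7 library left out the day 7 call was lost, at -1.09 with an adjusted p of 0.0670, where the 19 alternatives spanned 8.19e-05 to 0.0670. Cdh5 overlaps the antisense gene Gm29682 in the GENCODE M21 annotation, and with the strand of counting unknown their reads cannot be told apart.

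Pecam1 encodes CD31, an adhesion molecule at the contacts between endothelial cells. It had 86.0 and 96.7 normalized counts on day 0, 55.6 and 60.6 on day 7, 45.6 and 19.9 on day 14 and 16.0 and 30.2 on day 21. Libraries of each later time lay below both day 0 libraries, while those of days 14 and 21 overlapped each other. Pecam1 was lower than at day 0 by a log2 change of -1.56 ± 0.36 at day 14 (limma, adjusted p = 0.00198) and by -2.00 ± 0.36 at day 21 (adjusted p = 0.000451), a 4.00-fold lower value. At day 7 the difference of -0.64 ± 0.36 was not called (adjusted p = 0.152).

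Esam, which encodes an adhesion molecule of the tight junctions of endothelial cells, was read less. Its levels were 23.1 and 26.1 normalized counts on day 0, 12.8 and 28.5 on day 7, 6.38 and 10.5 on day 14 and 4.27 and 5.84 on day 21, from 49, 46, 16 and 10 reads per time. The 2 day 7 libraries lay on either side of the day 0 pair, and those of days 14 and 21 lay below it. Esam fell at day 14 against day 0 by 1.47 ± 0.44 on the log2 scale (limma, adjusted p = 0.00965) and at day 21 by 2.09 ± 0.44 (adjusted p = 0.00135). The day 14 call was lost without the second day 0 library (adjusted p = 0.0593) and without the first day 14 library (adjusted p = 0.0613), over a range of 0.00124 to 0.0613 in 17 alternatives.

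Emcn encodes endomucin, a sialomucin of venous and capillary endothelium that hinders leukocyte adhesion. It had 72.5 and 62.8 normalized counts on day 0, 48.3 and 45.5 on day 7, 54.7 and 61.9 on day 14 and 22.4 and 35.0 on day 21. Its time course had no steady slope, since day 14 lay above day 7 without a call (log2 difference 0.31 ± 0.25, limma adjusted p = 0.316) and day 21 lay below every other time. Emcn fell at day 21 against day 0 by 1.24 ± 0.25 (adjusted p = 0.000872). The differences at day 7 (-0.52 ± 0.25, adjusted p = 0.0922) and at day 14 (-0.21 ± 0.25, adjusted p = 0.460) were not called. The day 7 difference was called after removal of a trend with transcript length and GC content, at -0.65 with an adjusted p of 0.0419, where 19 alternatives spanned 0.0419 to 0.315.

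Tie1 and Tek, the angiopoietin receptor pair, parted. Tie1 had 42.2 and 40.5 normalized counts on day 0, 25.5 and 27.6 on day 7, 10.9 and 9.35 on day 14 and 4.27 and 3.89 on day 21, from 84, 59, 20 and 8 reads. The pairs of libraries at the 4 times did not overlap. Against day 0, Tie1 was lower at day 14 by a log2 change of -1.93 ± 0.32 (limma, adjusted p = 0.000167) and at day 21 by -3.06 ± 0.32 (adjusted p = 4.66e-06), an 8.34-fold lower value, whereas the day 7 difference of -0.62 ± 0.32 was not called (adjusted p = 0.120).

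Tek, which encodes the angiopoietin receptor TIE2, had 245 and 252 normalized counts on day 0, 353 and 326 on day 7, 253 and 189 on day 14 and 239 and 345 on day 21. Both day 7 libraries lay above both day 0 libraries, and the day 14 and day 21 libraries lay on both sides of them. None of the 3 differences from day 0 was called by limma, with log2 changes of 0.45 ± 0.18 at day 7 (adjusted p = 0.0511), -0.18 ± 0.18 at day 14 (adjusted p = 0.378) and 0.21 ± 0.18 at day 21 (adjusted p = 0.338). The day 7 difference lay next to the threshold and was called in 9 of 19 alternatives, which spanned adjusted p of 0.0205 to 0.210. At day 21 it was called without the first day 21 library (0.47, adjusted p = 0.0483, range 0.0483 to 0.813) and was -0.06 without the second. Within single libraries, the ratio of Tek to Tie1 normalized counts was 5.81 and 6.23 on day 0, 13.9 and 11.8 on day 7, 23.2 and 20.3 on day 14 and 56.0 and 88.8 on day 21. The ratio was higher in both libraries of each time than in those of any earlier time. Its day 21 values rest on 8 Tie1 reads over the 2 libraries.

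Kdr, which encodes VEGFR2, the main signalling receptor for VEGF-A in endothelium, was close to the limit of detection. It had 6.37 and 18.3 normalized counts on day 0, 9.11 and 8.92 on day 7, 4.56 and 0 on day 14 and 3.20 and 0.973 on day 21, from 22, 20, 5 and 4 reads. It was the only one of the 10 with no read in a library, the second at day 14, where 0 reads allow up to 3 reads by the floor used here. Summed over the 2 libraries of a time, its normalized reads at day 21 were 0.187 times those at day 0 (95% interval 0.0469 to 0.551, exact binomial, counting error only), and at day 7 they were 0.828 times those at day 0 (0.429 to 1.59). With no filter on low values, limma gave log2 differences of -2.34 ± 0.77 for day 14 against day 0 (adjusted p = 0.0250) and -2.05 ± 0.77 for day 21 against day 0 (adjusted p = 0.0525).

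Flt1, which encodes VEGFR1, a high-affinity receptor for VEGF-A, VEGF-B and PlGF, was the 1 gene of the 10 that rose. It had 37.4 and 30.1 normalized counts on day 0, 288 and 304 on day 7, 246 and 171 on day 14 and 281 and 244 on day 21. Every library in the medium lay above both day 0 libraries, and those of days 14 and 21 did not go above the day 7 pair. Against day 0, Flt1 was higher by a log2 change of 3.10 ± 0.19 at day 7 (limma, adjusted p = 4.74e-08), 2.58 ± 0.19 at day 14 (adjusted p = 1.35e-07) and 2.93 ± 0.19 at day 21 (adjusted p = 5.41e-08), a 7.61-fold higher value at day 21. Flt1 also gives rise to a soluble form that traps its ligands, and counts per gene do not separate it from the membrane receptor. The ratio of Flt1 to Cdh5 normalized counts was 0.212 and 0.164 on day 0, 4.51 and 3.63 on day 7, 16.9 and 16.2 on day 14 and 87.7 and 31.4 on day 21, with no overlap between times. It sets the gene that rose over the one that fell most, and its day 21 values rest on 11 Cdh5 reads. The ratios of Emcn and of Tie1 to Cdh5 did overlap between days 14 and 21, whereas those of Pecam1 and of Eng did not.

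Eng, which encodes endoglin (CD105), was far above the other members at every time. Its levels were 13440.4 and 15186 normalized counts on day 0, 13329 and 15194 on day 7, 10316 and 9114 on day 14 and 14585 and 17200 on day 21. Only the day 14 libraries stood apart, below all 6 others. Eng was lower at day 14 than at day 0 by a log2 change of -0.56 ± 0.12 (limma, adjusted p = 0.00127). At day 7 (-0.01 ± 0.12, adjusted p = 0.972) and at day 21 (0.15 ± 0.12, adjusted p = 0.311) no difference from day 0 was called. Eng overlaps Fpgs on the opposite strand in the GENCODE M21 annotation, and the strand used in counting is not given in the sources used here. Fpgs held 386 to 500.0 normalized counts per library and was lower than at day 0 by a log2 change of -0.25 ± 0.11 at day 14, the time at which Eng was called lower (adjusted p = 0.0492), and of -0.33 ± 0.11 at day 21 (adjusted p = 0.0190).

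Egfl7 encodes a protein that endothelial cells secrete into the matrix around growing vessels, and its gene hosts the microRNA miR-126. Its levels were 58.9 and 64.1 normalized counts on day 0, 30.1 and 33.9 on day 7, 10.9 and 25.7 on day 14 and 19.2 and 16.5 on day 21. All libraries of later times lay below those of day 0, and the 2 day 14 libraries spanned the day 21 pair. Against day 0, Egfl7 was lower by a log2 change of -0.92 ± 0.35 at day 7 (limma, adjusted p = 0.0388), -1.81 ± 0.35 at day 14 (adjusted p = 0.000508) and -1.73 ± 0.35 at day 21 (adjusted p = 0.000963), a 3.32-fold lower value. The day 7 call was lost without any 1 of the 4 libraries of days 0 and 7 (adjusted p from 0.0929 to 0.159), with no filter (0.0734) and with DESeq2 (0.0594), over a range of 0.00494 to 0.159 in 19 alternatives. In the GENCODE M21 annotation Egfl7 overlaps the protein-coding gene Gm20532 on the same strand, which is not among the gene symbols measured, and Agpat2 on the opposite strand. Agpat2 held 465 to 583 normalized counts per library, far more than Egfl7. It showed no called difference at day 21 against day 0 in the limma fit (log2 0.09 ± 0.11, adjusted p = 0.488).

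**Figure D2:**
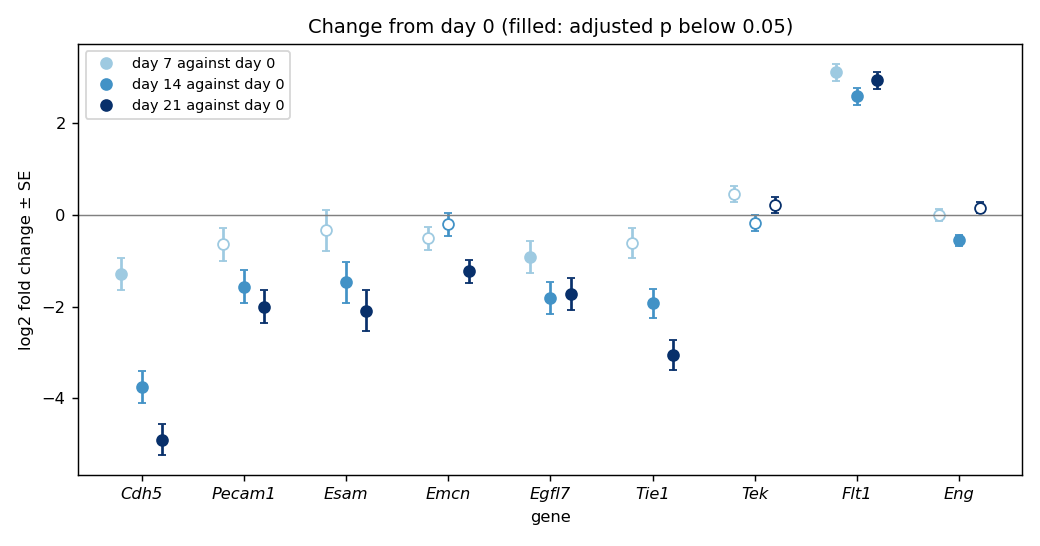
Log2 fold changes of the 9 tested endothelial genes for days 7, 14 and 21 against day 0, with limma standard errors as bars, 1 point per comparison, and filled points for adjusted p below 0.05. Cdh5 lies lowest at day 21 (-4.90), Flt1 lies between 2.58 and 3.10 at all 3 times, and Tek and Eng lie between -0.56 and 0.45.

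The number of calls differed between times. At day 7 against day 0, 2 of the 9 tested genes fell (Cdh5, Egfl7) and 1 rose (Flt1), where 27.9% of all tested genes fell and 27.5% rose (55.4% in all). The day 7 counts did not exceed those shares, so they do not set these genes apart. Both falls lost their call in some alternatives, as given above. At day 14 against day 0, 6 fell (Cdh5, Tie1, Egfl7, Pecam1, Esam, Eng) and 1 rose (Flt1), where 35.6% of all tested genes fell and 35.2% rose (70.7% in all). The median over the 9 was -0.52 at day 7 and -1.47 at day 14 on the log2 scale, beside -0.01 and 0.00 over all tested genes. All 3 of these comparisons share the day 0 libraries. The medians and the day 14 count of falls include Tie1 and Esam, which entered the test through days 0 and 7, when they were high. The day 14 values also carried a trend with transcript length over all genes, of -0.38 log2 units per doubling of length against day 0, and of -0.01 at day 7.

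Between day 14 and day 7, 8 of the 9 tested genes fell and none rose by limma, where 27.0% of all tested genes fell and 25.0% rose (52.0% in all). Emcn was the gene with no call. Among those that fell, Tie1 and Esam had entered the test through days 0 and 7, when they were high. The largest differences were those of Cdh5 (-2.47 ± 0.34, adjusted p = 0.000148) and Tie1 (-1.31 ± 0.32, adjusted p = 0.00495). Their calls and that of Eng (-0.55 ± 0.12, adjusted p = 0.00258) held in every alternative that tested them. The other 5 calls were lost in some. Tek (-0.63 ± 0.18, adjusted p = 0.0113) lost its call without the first day 7 library (adjusted p = 0.0775), without the second day 14 library (0.0874) and after removal of the trend with length and GC content (0.0558), over a range of 0.00216 to 0.0874. Flt1 (-0.53 ± 0.19, adjusted p = 0.0332) lost its call with no filter on low values (limma, adjusted p = 0.0582). The Flt1 call was also lost without either day 7 library or the second day 14 library, with differences of -0.57 to -0.27. Its difference was 0.01 after the length and GC trend was removed (adjusted p = 0.957). Over all genes, that trend was -0.37 log2 units per doubling of transcript length for day 14 against day 7. Esam (-1.13 ± 0.44, adjusted p = 0.0481) lost its call in 8 of 17 alternatives, Pecam1 (-0.92 ± 0.36, adjusted p = 0.0498) in 13 of 18 and Egfl7 (-0.88 ± 0.35, adjusted p = 0.0497) in 14 of 18. Among those were the fits without 1 library: for Esam 5 of them, without either day 0 library, the second day 7, the first day 14 or the second day 21 library (adjusted p 0.0503 to 0.411). For Pecam1 they were 5, without either day 0 or day 7 library or the second day 14 library (0.0704 to 0.432), and for Egfl7 they were 7, all but the one without the second day 14 library (0.0588 to 0.421).

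In the third week Eng rose and Emcn, Tie1 and Cdh5 fell. At day 21 against day 14, Eng was higher by 0.71 ± 0.12 on the log2 scale (limma, adjusted p = 0.00167). Emcn fell by 1.03 ± 0.25 (adjusted p = 0.00794), Tie1 by 1.13 ± 0.32 (adjusted p = 0.0180) and Cdh5 by 1.14 ± 0.34 (adjusted p = 0.0228), so that 3 of 9 fell and 1 rose, where 14.3% of all tested genes fell and 20.2% rose (34.5% in all). The Cdh5 call did not hold when the first day 14 (adjusted p = 0.0763) or the first day 21 library (-0.61, adjusted p = 0.149) was left out, nor with edgeR (0.0741) or DESeq2 (0.104), over a range of 0.0101 to 0.149. The Tie1 call did not hold when the first day 14 (0.0529) or the second day 21 library (0.0660) was left out, nor with edgeR (0.0517), over a range of 0.00970 to 0.0660. Without the first day 14 library Tek (adjusted p = 0.0210) and Flt1 (adjusted p = 0.0188) were called higher, Tek likewise without the first day 21 library (adjusted p = 0.0207), and without the second day 14 library Pecam1 was called lower (-1.02, adjusted p = 0.0475), whereas with all 8 libraries these 3 were not called (adjusted p 0.111, 0.165 and 0.373).

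The comparison of day 21 with day 7 was the one with the fewest calls over all genes, 3.28% lower and 5.46% higher (8.74% in all). Within it, 4 of the 9 tested endothelial genes fell and none rose. Of these, Tie1 and Esam had entered the test through days 0 and 7, when they were high. With the filter at 50, 2 endothelial genes were called. Cdh5 fell by 3.61 ± 0.34 on the log2 scale (limma, adjusted p = 6.46e-05) and Tie1 by 2.44 ± 0.32 (adjusted p = 0.000737), and both calls held in every alternative that tested them. Esam fell by 1.75 ± 0.44 (adjusted p = 0.0307) and Pecam1 by 1.36 ± 0.36 (adjusted p = 0.0388). These calls were lost without either day 0 library, without the second day 7 library and without the first day 21 library, for Pecam1 also without the first day 7 library (adjusted p 0.0582 to 0.315 for Esam and 0.0695 to 0.283 for Pecam1). Both were also lost with no filter on low values (limma, adjusted p = 0.0555 for Esam and 0.0891 for Pecam1). That of Pecam1 was lost as well with the replicate block (0.0672) and with length and GC removal plus the block (0.0555). The Esam call was thus lost in 5 of 17 alternatives and the Pecam1 call in 8 of 19. Flt1 differed by -0.18 ± 0.19 (adjusted p = 0.604), Tek by -0.24 ± 0.18 (adjusted p = 0.443) and Eng by 0.15 ± 0.12 (adjusted p = 0.466). Emcn was called lower without the second day 21 library (-1.03, adjusted p = 0.0325) and Egfl7 without the first day 14 library (-0.81, adjusted p = 0.0421), against -0.72 (adjusted p = 0.0910) and -0.81 (adjusted p = 0.173) with all libraries.

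Levels of different genes were compared per kilobase of transcript. At day 0 the order of mean levels, in normalized counts per kilobase, was Eng (4183), Tek (53.5), Cdh5 (45.0), Egfl7 (33.0), Pecam1 (26.6), Emcn (19.2), Esam (13.2), Tie1 (9.77), Flt1 (4.89) and Kdr (2.08), and no neighbours in that order overlapped between libraries. At day 7 Eng (4168) and Tek (73.0) still led, Flt1 (42.9) had come to the third place and Cdh5 (18.5) stood next, overlapping Egfl7 (17.1), which overlapped Pecam1 (16.9). Emcn (13.3) and Esam (11.1) overlapped too, with Tie1 (6.28) and Kdr (1.52) last. At day 14 Eng (2839), Tek (47.6) and Flt1 (30.2) led, followed by Emcn (16.6), the overlapping Egfl7 (9.82) and Pecam1 (9.51), the overlapping Esam (4.53) and Cdh5 (3.14), Tie1 (2.40) and Kdr (0.384). At day 21 the order was Eng (4644), Tek (62.8), Flt1 (38.1), Egfl7 (9.59), Emcn (8.16), Pecam1 (6.71), Esam (2.71), Cdh5 (1.37), Tie1 (0.964) and Kdr (0.353). There Egfl7 overlapped Emcn, Emcn overlapped Pecam1, and Cdh5 overlapped Tie1. Eng thus exceeded every other member at each time, while Cdh5 held the eighth place at day 21, against the third at day 0, and Flt1 the third, against the ninth.

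**Figure D3:**
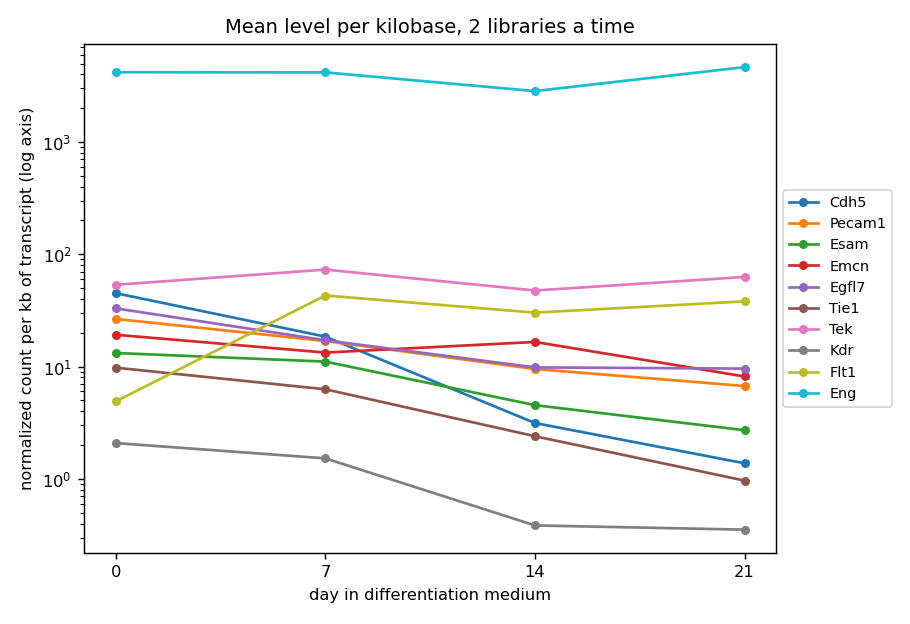
Mean normalized counts per kilobase of transcript of the 10 endothelial genes at each time, on a logarithmic axis, with 1 line per gene and a point for each mean of 2 libraries. Flt1 climbs past 6 genes between day 0 (4.89) and day 7 (42.9), and Cdh5 drops to 1.37 at day 21, against 45.0 at day 0.

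The ligands and co-receptors of the VEGF system changed in their own directions. Of 8 listed genes, all tested, 5 were higher and 2 lower at day 21 against day 0, with a median log2 change of 0.62, where 29.8% of all tested genes were higher and 29.5% lower. Vegfa, the principal ligand of Kdr, had 1693 ± 154 normalized counts on day 0, 695 ± 21.4 on day 7, 474.5 ± 24.8 on day 14 and 759 ± 34.1 on day 21, and was lower at day 21 than at day 0 by a log2 change of -1.15 ± 0.10 (limma, adjusted p = 1.11e-06). Vegfc and Figf, the genes of the lymphatic growth factors VEGF-C and VEGF-D, rose by 1.99 ± 0.11 (adjusted p = 1.93e-08) and 1.45 ± 0.09 (adjusted p = 5.95e-08) at day 21 against day 0. Figf was the most abundant ligand row, with 16585 ± 26.7 normalized counts at day 21 and 6051 ± 88.7 at day 0. Vegfb, a ligand of Flt1, was higher at day 21 by 0.80 ± 0.10 (adjusted p = 2.62e-05), and Pgf, the gene of the Flt1 ligand PlGF, was higher at day 7 against day 0 (0.99 ± 0.27, adjusted p = 0.00817) but was not called at day 21 (0.14 ± 0.27, adjusted p = 0.674). Flt4, which encodes the receptor of VEGF-C and VEGF-D, fell at day 21 against day 0 by 1.55 ± 0.19 (adjusted p = 1.45e-05). Of the neuropilins, co-receptors for VEGF and semaphorins, Nrp1 rose by 1.87 ± 0.15 (adjusted p = 4.16e-07) and Nrp2 by 0.43 ± 0.12 (adjusted p = 0.00672).

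Among 5 listed genes of the angiopoietin system, all tested, 2 rose and 2 fell at day 21 against day 0, with a median log2 change of 0.16, counts too small to set the list apart from the 29.8% of all tested genes that rose and the 29.5% that fell. Angpt1, the gene of the main agonist of the Tek receptor, had 76.5 ± 4.60 normalized counts on day 0, 258 ± 30.1 on day 7, 362 ± 107 on day 14 and 431 ± 71.6 on day 21, and was higher at day 21 than at day 0 by a log2 change of 2.47 ± 0.19 (limma, adjusted p = 3.18e-07). Angpt2, whose product can act as an antagonist of that receptor, rose by 0.87 ± 0.14 (adjusted p = 0.000173), and Angpt4 was not called (0.16 ± 0.22, adjusted p = 0.538). Ptprb encodes VE-PTP, a phosphatase that acts on TIE2 and VE-cadherin, and had 3374 ± 86.6 normalized counts on day 0, 466 ± 4.38 on day 7, 211.5 ± 46.2 on day 14 and 189.9 ± 16.9 on day 21. Ptprb was lower by a log2 change of -2.85 ± 0.14 at day 7 against day 0 (adjusted p = 6.55e-09) and of -4.15 ± 0.14 at day 21 against day 0 (adjusted p = 2.13e-10). Angptl1, an angiopoietin-like gene, fell at day 21 by 1.32 ± 0.50 (adjusted p = 0.0371), with 4.62 ± 1.03 normalized counts at day 21 and 13.2 ± 3.86 at day 0, and entered the test only through the 2 day 0 libraries, where it was above 10.

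Around Eng, 14 genes of its signalling system were listed and found among the symbols measured, and 12 of them were tested. Of the 12, 7 rose and 2 fell at day 21 against day 0, with a median log2 change of 0.87, where 29.8% of all tested genes rose and 29.5% fell. Acvrl1, which encodes the type I receptor ALK1 that endoglin serves, fell by 0.30 ± 0.09 (limma, adjusted p = 0.0128), and the type II receptor gene Bmpr2 was not called (0.19 ± 0.13, adjusted p = 0.227). The TGF-beta receptor genes Tgfbr1 and Tgfbr2 rose by 0.74 ± 0.14 (adjusted p = 0.000747) and 1.00 ± 0.14 (adjusted p = 4.5e-05). The BMP target genes Id1, Id2 and Id3, inhibitors of DNA binding, rose by 2.13 ± 0.12 (adjusted p = 1.2e-08), 2.33 ± 0.09 (6.91e-10) and 1.93 ± 0.11 (2.24e-08), and the inhibitory SMAD genes Smad6 and Smad7 by 1.62 ± 0.13 (3.34e-07) and 1.24 ± 0.13 (5.56e-06). The signal-carrying SMAD genes Smad1 (-0.15 ± 0.12, adjusted p = 0.282) and Smad5 (-0.05 ± 0.10, adjusted p = 0.708) were not called. Mmp14, which encodes a protease that sheds endoglin from the cell surface, fell by 0.34 ± 0.13 (adjusted p = 0.0348). At day 14, where Eng itself was lower, 4 of the 12 were called lower than at day 0 (Acvrl1, Bmpr2, Mmp14, Smad1) and 4 higher (Id1, Id2, Id3, Smad6), with a median log2 change of -0.05, where 35.6% of all tested genes fell and 35.2% rose.

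A wider list of 34 other endothelial genes held both falls and rises. Of its 28 tested genes, 11 fell, 6 rose and 11 were not called at day 21 against day 0, with a median log2 change of -0.48, where 29.5% of all tested genes fell and 29.8% rose. At day 7 against day 0, 8 fell and 5 rose, beside 27.9% and 27.5% of all tested genes, so the share that fell was near that of all genes. At day 14 against day 0, 13 fell and 6 rose, beside 35.6% and 35.2%. Ptprb, given above with the angiopoietin system, was among the largest falls. Mmrn2, which encodes a matrix glycoprotein of endothelium, had 44.3 ± 1.58 normalized counts on day 0, 20.7 ± 2.86 on day 7, 8.19 ± 0.0131 on day 14 and 3.11 ± 1.65 on day 21, a log2 change of -3.52 ± 0.38 at day 21 against day 0 (limma, adjusted p = 6.46e-06). Nos3, the gene of endothelial nitric oxide synthase, had 2 reads at day 21 and 65 at day 0, a ratio of normalized reads of 0.0317 (95% interval 0.00375 to 0.119). Ramp2, which encodes a subunit of the adrenomedullin receptor, rose, with 499.8 ± 142 normalized counts at day 21 and 22.0 ± 7.12 at day 0, a log2 change of 4.45 ± 0.24 (adjusted p = 1.1e-08). The others that rose, named after their values were seen, were Clec14a (3.10 ± 0.32, adjusted p = 3.72e-06), Cd34 (2.48 ± 0.11, 1.85e-09), Bmx (1.71 ± 0.10, 1.9e-08), Cd93 (0.78 ± 0.19, 0.00419) and Stab1. Ecscr (-0.30 ± 0.16, adjusted p = 0.117) and the ETS factor gene Fli1 (0.01 ± 0.17, adjusted p = 0.954) were not called at day 21. The related ETS factor gene Erg, named after its values were seen, fell by 3.12 ± 0.45 (adjusted p = 6.72e-05), with 3.06 ± 0.202 normalized counts at day 21 and 34.7 ± 8.37 at day 0. Erg reached 10 normalized counts in the 2 day 0 libraries alone. Mmrn2 did so only in libraries of days 0 and 7, as did Cldn5, Robo4, Nos3, Sox18 and Myct1, which were also called lower at day 21. All of these entered the test through times when they were high, so the count of 11 falls depends in part on the filter.

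Lymphatic endothelial markers were 5, of which 4 were tested, and 3 fell and 1 rose at day 21 against day 0, too few to read against the 29.5% and 29.8% of all tested genes. Lyve1 rose by 1.85 ± 0.35 (limma, adjusted p = 0.000587), with 21.6 ± 7.19 normalized counts at day 21 and 5.26 ± 1.81 at day 0, and it is also made by tissue macrophages. Lyve1 reached 10 only in the 6 libraries in the medium, so it entered the test through times when it was high. Prox1, the regulator of lymphatic identity, had 3.20 ± 4.53 normalized counts on day 21, against 14.0 ± 0.599 on day 0, and fell by 2.46 ± 0.84 (adjusted p = 0.0238), having reached 10 only in the 2 day 0 libraries and 1 of day 7. Pdpn, which encodes podoplanin and is also made by fibroblasts, fell by 0.49 ± 0.12 (adjusted p = 0.00401).

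Markers of other cell types took different courses at day 21 against day 0, when 29.8% of all tested genes rose and 29.5% fell. Among the macrophage and leukocyte genes, whose median log2 change was 3.37, Mrc1 rose by 4.63 ± 0.28 (limma, adjusted p = 2.81e-08), Tyrobp by 4.61 ± 0.26 (1.87e-08), Lyz2 by 4.55 ± 0.22 (3.57e-09) and C1qa by 3.86 ± 0.27 (1.01e-07), while Cx3cr1, the 1 that fell and named after its values were seen, had 3.11 ± 1.65 normalized counts at day 21 and 13.7 ± 6.48 at day 0. Of 10 fibroblast genes, 5 rose, among them Lum (2.54 ± 0.16, adjusted p = 3.85e-08), Dcn (2.46 ± 0.14, 2.03e-08) and Tcf21 (2.07 ± 0.10, 3.17e-09), and 3 fell, among them Col1a1 (-2.23 ± 0.18, 3.89e-07). Of 7 tested genes of pericytes and smooth muscle, the cells that wrap vessels, 4 rose, among them Kcnj8 (2.71 ± 0.40, 9.5e-05), Rgs5 (1.39 ± 0.41, 0.0114) and Myh11 (1.32 ± 0.25, 0.00067), and 2 fell, among them Cspg4 (-1.77 ± 0.36, 0.000941). Kcnj8 and Tyrobp reached 10 normalized counts only in the 6 libraries in the medium, so they entered the test through times when they were high. Of 4 tested megakaryocyte and platelet genes, 1 fell (Itgb3, -1.73 ± 0.14, 3.88e-07) and none rose, and Pf4, a platelet chemokine gene, was not called (0.26 ± 0.24, adjusted p = 0.370). The part of any of these cell types in the values of the endothelial genes was not tested.

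**Figure D4:**
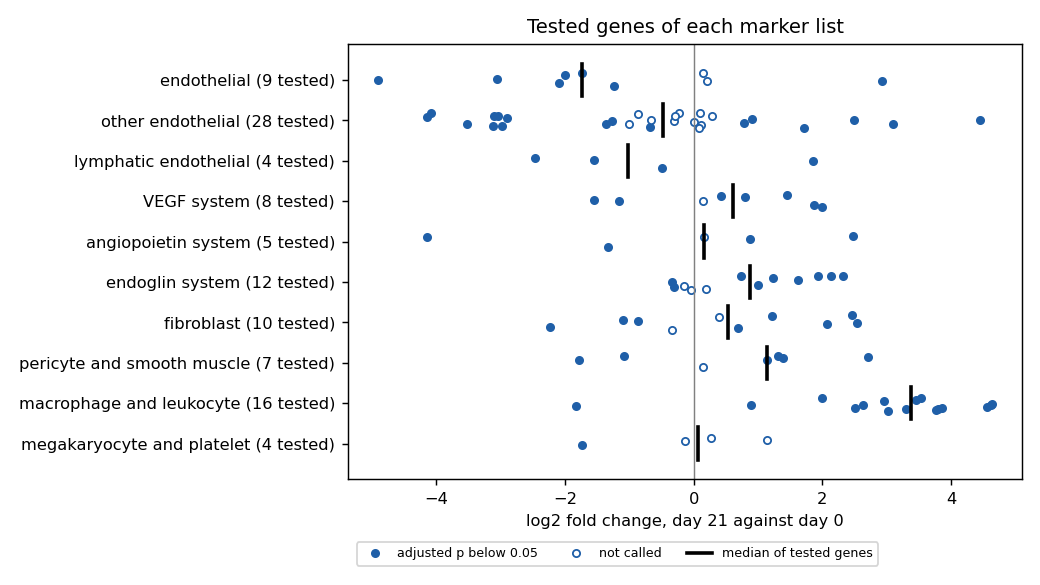
Log2 fold changes at day 21 against day 0 of the tested genes of the endothelial marker list and the 9 companion lists, with 1 point per gene, filled where the adjusted p was below 0.05, and a bar at the median. The endothelial markers have a median of -1.73 and the macrophage and leukocyte genes one of 3.37.

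The genes whose time courses were most like those of single members were found by the root mean square difference of centred log2 levels over the 8 libraries, among tested genes whose highest group mean was 50 or more. For Cdh5 they were Wfdc18 (0.47), Gal3st3 (0.66) and Slc16a3 (0.79), a wider distance than for the other 6 members searched. Tek was followed most closely by Ebf3 (0.055), Zfp287 (0.068) and Plagl2 (0.079), and Eng by Syne2 (0.071), Slc35b4 (0.078) and Slc36a1 (0.081). The nearest to Flt1 were Daam2 (0.12), Hs3st3b1 (0.14) and Gm15441 (0.14). For Pecam1 they were Zfyve28 (0.25), Dmrta2 (0.31) and Fmod (0.33), for Emcn Zfp579 (0.19), Tinagl1 (0.23) and Banp (0.23), and for Egfl7 4930429B21Rik (0.26), Pcyt1b (0.27) and Efna4 (0.28). None of these lists held another of the 10 members, since members were left out of the search. Tie1, Esam and Kdr, whose highest means lay below 50, were not searched.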

How the data were processed

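The deposited table holds a normalized signal for 24015 gene symbols and 8 libraries, in which each library's read counts were scaled by a single factor. The authors' mapping and counting are known only from the submitters' processing notes, which name TopHat2 2.0.11, HTSeq 0.6.1, DESeq (version not given) and the genome build mm9. The sources used here give neither annotation nor strand. Whole reads could be recovered from the steps between the deposited values (100% whole within 0.01 reads).

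Values were tested as log2(value + 1) with limma 3.58.1 (trend, R 4.3.3), on 13527 genes with at least 10 in at least 2 of 8 libraries. All 4 times were fitted together (4 residual and 8.16 prior degrees of freedom), with Benjamini-Hochberg adjustment and calls at an adjusted p below 0.05. Fold changes are on the log2(value + 1) scale, which understates changes of low genes. edgeR 4.0.16 and DESeq2 1.42.0 on the recovered reads were alternatives, with other pseudocounts, filters and scaling, libraries left out, a replicate block, and removal of trends with transcript length and GC content (GENCODE M21, matched for 98.4% of symbols). Intervals at 95% and the floor of 3 reads cover counting error only.

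The members and lists were chosen with earlier results of these data known. All members were named, and from each other list up to 4 tested genes with the largest change at day 21 against day 0 and up to 2 uncalled ones, besides all tested genes of the VEGF, angiopoietin and endoglin systems. The fits were tested on simulated data. Python 3.11.15 and matplotlib 3.10.9 drew the figures.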

Additional observations from a re-analysis of the deposited data

How the results depend on the processing

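Against day 0, the counts of endothelial genes called kept near their values at day 14 (6 to 7 with 1 library left out, 7 with all) and at day 21 (7 to 8, 7 with all) and ranged from 1 to 4 at day 7 (3 with all, 5 after removal of the length and GC trend). At day 14 against day 7 the count of 8 became 5 with a pseudocount of 0.5, with DESeq2 and with length and GC removal, with or without the replicate block, 4 without a filter or with a filter at 50, and 4 to 7 with 1 library left out. At day 21 against day 14 the count of 4 became 2 with edgeR and with DESeq2 (3 to 5 with 1 library left out), and at day 21 against day 7 the count of 4 became 2 without a filter or at 50 (2 to 5). Over all genes the counts with 1 library left out ranged from 5567 to 8136, 8237 to 9732 and 6330 to 8628 for days 7, 14 and 21 against day 0, from 4839 to 7309 for day 14 against day 7, from 2302 to 5735 for day 21 against day 14 (4664 with all) and from 262 to 2188 for day 21 against day 7 (1182 with all, 739 without a filter, and 2180 without both day 14 libraries, an alternative chosen after seeing the data). Of 984 alternative values of single members, 876 kept direction and call and 17 changed sign. With direction kept, 72 lost a call and 19 gained one, and the causes were not tested. The Flt1 call at day 14 against day 7 was also lost in the 2 fits that changed its sign. The changes of sign were Eng at day 7 against day 0 (0.026 with TMM, 0.027 with edgeR, and -0.10 to 0.089 with 1 library left out, positive without the second day 0 library, 0.08, or the first day 7 library), Esam at day 7 (-0.89 to 0.21, positive without the first day 7 library), Tek at day 14 against day 0 (-0.39 to 0.026, positive without the second day 14 library), at day 21 against day 0 (-0.056 to 0.47, negative without the second day 21 library) and at day 21 against day 7 (-0.50 to 0.024, positive without the first day 21 library), Flt1 with length and GC removal, with or without the block, at day 14 against day 7 (0.013) and day 21 against day 14 (-0.037), Pecam1 at day 21 against day 14 (-1.02 to 0.14, positive without the first day 14 library), and Egfl7 there (-0.00015 with edgeR, -0.013 with DESeq2, and -0.50 to 0.66 with 1 library left out, negative without the first day 14 or, at -0.03, the first day 21 library). Replicate numbers are shared between times, but same-numbered libraries deviated together with correlations of only -0.036 to 0.074, so the numbers were not taken to pair the samples, and with the replicate block the member counts were 3, 7, 7, 6, 4 and 3 for the comparisons with day 0 (7, 14, 21) and then 14 with 7, 21 with 14 and 21 with 7, among 7443, 9522, 7973, 6960, 4521 and 949 genes called. With 4 reads of Kdr, 8 of Tie1, 10 of Esam and 11 of Cdh5 over the 2 day 21 libraries, depth limits how finely the lowest levels can be ordered.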
